A study of Mus musculus with 6 samples.

Results

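The receptors described here are 10 named genes for surface receptors through which hormones, nutrients and nerves act on the pancreatic islet: Glp1r, Gipr, Gcgr, Ffar1, Gpr119, Adra2a, Sstr3, Chrm3, Galr1 and Casr. They were chosen by name, as 10 of the 55060 genes in the deposited expression table, and all 10 were abundant enough to be tested. RNA-seq was carried out on whole islets from 12-week-old mice in which Parn, the gene for a nuclease that shortens poly(A) tails, was deleted in β cells, and the comparison asks how islet transcripts differ once it is lost. The cKO group (3 samples, genotype Ins2-cre; Parn f/f) carries exon 7 of Parn flanked by loxP sites on both alleles and a Cre driven by the Ins2 promoter. The Ctrl group (3 samples) consisted of Parn f/f and other littermates. Whether any Ctrl mouse carried the Cre was not given in the sources used here, so the transgene and the deletion cannot be told apart. Nor was it given whether a sample was 1 mouse or a pool, and p-values therefore measure the spread between these samples, which may be partly technical.

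These receptors are G protein-coupled receptors, and the class of G protein decides what each does to insulin release. GLP1R, GIPR, GCGR and GPR119 act through Gs and raise cAMP, which amplifies secretion once glucose has depolarised the β cell, and FFAR1, CHRM3 and CASR act mainly through Gq and phospholipase C to raise calcium. ADRA2A, SSTR3 and GALR1 act through Gi/o and restrain secretion, as adrenaline, somatostatin and galanin do.

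The sequences just upstream of the transcription start are shown for 4 receptors of the incretin, glucagon and lipid groups, since these groups held the largest differences. These 4 had an entry in the set of RefSeq promoters used here. Each is the 250 bases before the start on the gene's own strand, 5′ to 3′, from RefSeq's annotation of GRCm38.p6: Glp1r at chr17:30901617-30901866 (+), Gcgr at chr11:120530477-120530726 (+), Ffar1 at chr7:30861471-30861720 (-) and Gpr119 at chrX:48674479-48674728 (-). RefSeq places the starts of Gcgr and Ffar1 inside the gene models of the expression table, so these windows overlap them. Capitals mark matches on either strand to GGGCGG (the GC box), TGACG (the half-site of the cAMP response element) and TAAT (the homeodomain core); 8 of the 10 receptors had an entry, all but Gipr and Galr1.
Glp1r: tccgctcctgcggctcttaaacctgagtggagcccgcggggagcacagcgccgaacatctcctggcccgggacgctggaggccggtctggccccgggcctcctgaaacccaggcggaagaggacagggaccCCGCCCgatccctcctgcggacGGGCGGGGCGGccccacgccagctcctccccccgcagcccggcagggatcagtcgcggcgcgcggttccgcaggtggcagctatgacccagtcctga
Gcgr: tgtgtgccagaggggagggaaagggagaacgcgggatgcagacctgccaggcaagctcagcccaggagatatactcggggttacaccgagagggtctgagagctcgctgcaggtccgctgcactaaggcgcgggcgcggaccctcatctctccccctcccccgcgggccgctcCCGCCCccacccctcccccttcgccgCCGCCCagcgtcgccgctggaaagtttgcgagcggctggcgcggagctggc
Ffar1: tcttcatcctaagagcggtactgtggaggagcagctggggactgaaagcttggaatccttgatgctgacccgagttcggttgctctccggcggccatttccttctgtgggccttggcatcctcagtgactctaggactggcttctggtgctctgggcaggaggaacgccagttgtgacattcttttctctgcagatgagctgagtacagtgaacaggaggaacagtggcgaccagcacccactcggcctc
Gpr119: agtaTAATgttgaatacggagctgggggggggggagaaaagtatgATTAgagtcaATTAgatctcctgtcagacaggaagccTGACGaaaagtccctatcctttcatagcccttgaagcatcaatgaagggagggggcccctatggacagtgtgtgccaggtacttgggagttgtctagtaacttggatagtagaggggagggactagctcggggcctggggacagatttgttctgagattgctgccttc
The Glp1r window held 3 GC boxes, of which the pair nearest the start share a base, and the Gcgr window held 2, with a GC content of 73.2% and 70.4%. The Gpr119 window was 50.4% GC, with 1 TGACG and 3 TAAT matches and no GC box, and the Ffar1 window (56.4% GC) matched none of these letters. Of 32851 windows of the same length, 32.7% held GGGCGG, 17.8% held TGACG and 54.9% held TAAT.

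Values are FPKM, the reads of a gene per kilobase of its length and scaled to library size, as the authors deposited them. Reads on genes numbered 16470783 to 17519109 in Ctrl and 16289408 to 17944775 in cKO. The library sizes behind the FPKM, rescaled by the authors, were 15731223 to 17448159 and 17386442 to 18085944, at which 1 read on 1 kb was worth an FPKM of 0.0553 to 0.0636. Parn itself, read first as a check of the labels, stood at 6.64, 8.34 and 7.38 in Ctrl and at 4.97, 4.61 and 6.15 in cKO. The groups did not overlap, with cKO below, as was so for 6.03% of all genes tested. The ratio of means was 0.704, in islets that also hold cells outside the reach of an Ins2-driven Cre. The log2 fold change was -0.44 (limma adjusted p = 0.545).

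1 Ctrl sample stood apart from the rest. On the first principal component, which carried 34.7% of the variance, Ctrl 1 lay at 52.4 and the other samples between -26.6 and 2.91. Its mean correlation with the others was 0.951, against 0.961 to 0.968. Lyz2, a lysozyme of macrophages and granulocytes, was listed at 539 in Ctrl 1 and at 15.6 to 56.0 elsewhere. Receptor results that turn on this sample are given with and without it, and the part of these cells in them was not tested.

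On the FPKM scale, Glp1r had the highest mean in both genotypes (141 ± 57.0 in Ctrl and 103 ± 21.0 in cKO, SD, n = 3 each). In Ctrl it was followed by Gipr (63.5), Sstr3 (57.5), Adra2a (44.2) and Ffar1 (38.0), whose ranges overlapped each with the next, and then by Gcgr (18.6), Galr1 (15.7), Casr (13.6), Gpr119 (10.3) and Chrm3 (5.74), again overlapping neighbour by neighbour. The sample ranges left a gap after Glp1r and after Ffar1 and nowhere else. In cKO the order differed in places: Gpr119 came sixth and Gcgr ninth, and the gaps came after Glp1r, Adra2a, Ffar1 and Gcgr. The place of Glp1r rests on the gene length behind the FPKM, because the table used 1480 bases, and its gene model ended 4281 bases short of the GENCODE M21 model, whose coding transcript has 13 exons and 5811 bases. Comparisons of Glp1r between samples use the same length. Reads past the end of that gene model were not counted, and whether samples differ there was not tested.

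**Figure D1:**
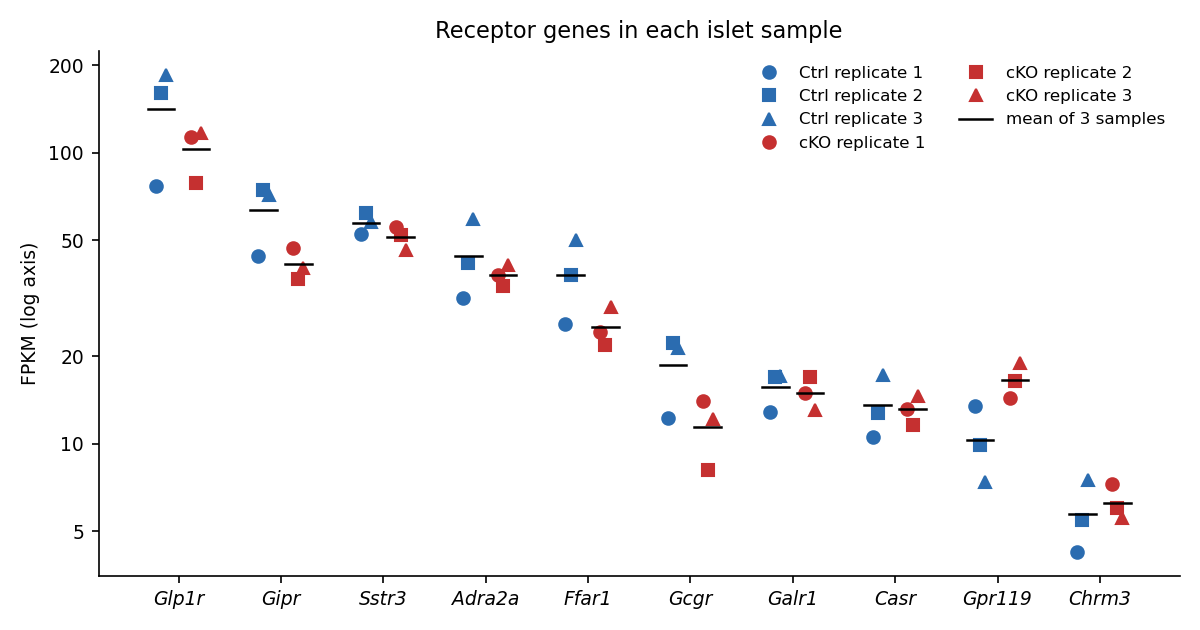
FPKM of the 10 receptor genes (log axis) in the 3 Ctrl and 3 cKO samples, with one point per sample and genes along the axis. Glp1r is highest in every sample (77.1 to 186), Ctrl 1 lies below the other Ctrl samples for 9 of the 10 genes, and for Gpr119 alone all 3 cKO samples lie above all 3 Ctrl samples.

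Across all 21211 genes tested, limma with Benjamini-Hochberg adjustment called 0 at an adjusted p under 0.05. At an unadjusted p under 0.05 it called 651 lower in cKO (3.07%) and 919 higher (4.33%), 7.4% together, and for 13.1% of genes the groups did not overlap (6.03% with cKO below and 7.11% with cKO above). Of the 10 receptors, 1 was lower (Gipr) and 1 higher (Gpr119) at this unadjusted level. None passed the adjusted threshold, and only Gpr119 did not overlap. The 10 fold changes were negative in 8 and positive in 2, with a median of -0.17 on the log2(FPKM + 1) scale, where the median of all genes was -0.014. Without Ctrl 1, 1142 (5.45%) of 20965 genes were called lower and 1231 (5.87%) higher at the unadjusted level, 11.3% together, and 0.0668% passed the adjusted threshold, and the receptors called were 4 lower (Glp1r, Gipr, Gcgr, Ffar1) and 1 higher (Gpr119). The split of calls also moved with some scalings. Of the genes called, 41.5% were lower in cKO as deposited and after median-ratio scaling, and 38.3% after scaling to the sum without Ins1 and Ins2. The share was 14.6% after scaling to the sum of all genes, 18.0% with voom and 11.9% after scaling to β cell genes. The β cell scaling put the median of all genes at 0.11. In RNA from whole islets, fewer cells of a type and less RNA per cell cannot be told apart. By insulin staining, the paper found no significant difference in β cell mass between the genotypes, at ages other than the one sequenced.

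The receptors for the incretins and glucagon were the ones with the largest negative values, together with Ffar1. Glp1r, the GLP-1 receptor of β and δ cells, lies on GRCm38 chr17:30901867-30936510 (+). It stood at 77.1, 161 and 186 in Ctrl and at 113, 78.8 and 117 in cKO. Both of Ctrl 2 and Ctrl 3 were above every cKO sample, and Ctrl 1 was below every one of them. The log2 fold change was -0.38 (SE 0.346, limma adjusted p = 0.831), and -0.76 (SE 0.198, limma adjusted p = 0.267) without Ctrl 1. It shrank to -0.14 without Ctrl 3, -0.20 without cKO 2 and -0.24 without Ctrl 2, so its size rests on single samples in both directions. The gene was covered by 1990 to 4574 reads, so counting error was small beside the spread between samples.

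Gipr, the GIP receptor, has 14 exons at chr7:19156061-19166127 (-). It was listed at 44.0, 74.7 and 71.9 in Ctrl and at 47.2, 36.7 and 40.2 in cKO. Ctrl 2 and Ctrl 3 again lay above all cKO samples, while Ctrl 1 lay among them. The means were 63.5 ± 16.9 and 41.4 ± 5.32 in that order (SD, n = 3 each). The log2 fold change was -0.58 (SE 0.216), with an unadjusted p of 0.0346 and an adjusted p of 0.635 by limma, and it ranged from -0.82 to -0.44 when each sample was left out. The unadjusted call was lost without Ctrl 2, Ctrl 3, cKO 2 or cKO 3, where the lowest and highest p by limma were 0.0835 and 0.110, and after scaling to the sum of all genes or to β cell genes.

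Gcgr, the glucagon receptor, stood at 12.2, 22.2 and 21.4 in Ctrl and at 14.01, 8.10 and 12.2 in cKO. Its sample order in Ctrl was that of Glp1r and Gipr in that Ctrl 1 was far below the other Ctrl samples. The log2 fold change was -0.64 (SE 0.275, limma adjusted p = 0.687), and -0.91 (SE 0.217, limma adjusted p = 0.236) without Ctrl 1. Leaving out the other samples in turn gave -0.80 without cKO 1, where it was also called at the unadjusted level, to -0.44 without cKO 2. The gene (chr11:120530699-120538986, +) is overlapped on the other strand by Gm11789, whose FPKM reached 3.97. The strand setting of the counting was not given in the sources used here, so reads from their overlap cannot be assigned to either gene with certainty.

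The Gipr to Glp1r ratio, which does not depend on library size, was 0.572, 0.464 and 0.387 in Ctrl and 0.417, 0.466 and 0.344 in cKO. The groups overlapped, and the difference of mean log2 ratios was -0.21 (exact two-sided permutation p = 0.5, where the smallest p that 3 against 3 samples allow is 0.1). It was -0.062 without Ctrl 1, -0.087 without cKO 3 and -0.34 without Ctrl 3, so its size rests on single samples. Over the 13362 genes whose mean FPKM reached 1, likeness of pattern was measured as a root mean square difference over the 6 samples. It was taken on log2(FPKM + 1) after each gene was centred on its own mean. Level still counts in part, because the added 1 shrinks the swings of low genes. A low gene can therefore match with a wider fold range, such as Gm16024 (0.336 to 2.60) beside Gcgr (8.10 to 22.2). The patterns nearest to Gipr were those of Agt, Rasgrf1 and Nectin1, at 0.0711 to 0.0938. The nearest to Glp1r were Bambi-ps1, 1810034E14Rik and an unnamed gene model (0.0761 to 0.0927), and the nearest to Gcgr were Klhl33, an unnamed gene model and Gm16024 (0.0993 to 0.125). The median gene lay 0.492, 0.415 and 0.490 in centred pattern from Glp1r, Gipr and Gcgr, and with this many genes and 6 samples some close matches always occur.

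The lipid receptors had fold changes of opposite sign. Ffar1, the long-chain fatty acid receptor also called GPR40, is a single-exon gene at chr7:30857390-30861564 (-). It stood at 25.9, 38.0 and 50.3 in Ctrl and at 24.2, 21.8 and 29.5 in cKO. Only Ctrl 1 fell within the cKO range. Mean FPKM was 38.0 ± 12.2 and 25.2 ± 3.95 (SD, n = 3 each), and the log2 fold change was -0.54 (SE 0.242, limma adjusted p = 0.692), or -0.78 without Ctrl 1 (SE 0.174, limma adjusted p = 0.223). It was -0.32 without Ctrl 3.

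Gpr119, the Gs-coupled receptor for oleoylethanolamide and lysophospholipids, was the single receptor of the 10 with higher values in every cKO sample. It was listed at 13.5, 9.89 and 7.42 in Ctrl and at 14.4, 16.4 and 18.9 in cKO, from 280 to 776 reads. The lowest cKO sample was close to the highest Ctrl sample. Mean FPKM was 10.3 ± 3.07 and 16.6 ± 2.26 (SD, n = 3 each), and the log2 fold change was 0.67 (SE 0.209), with an unadjusted p of 0.0167 and an adjusted p of 0.546 by limma. When each sample was left out, the fold change ranged from 0.47 to 0.87, and 5 of the 6 fits called it at the unadjusted level, all but the fit without cKO 3, where the fold change was 0.57. Gpr119 is X-linked (chrX:48667979-48674478, -), and the labels give no sex. Xist, transcribed from the inactive X, was listed at 24.1, 20.4 and 42.5 in Ctrl and at 29.9, 39.4 and 0.139 in cKO. Ddx3y, on the Y chromosome, was at 6.31, 3.17 and 0 in Ctrl and at 1.16, 0 and 9.83 in cKO. Xist and Ddx3y were both above 0 in Ctrl 1, Ctrl 2, cKO 1 and cKO 3, with Xist near 0 in cKO 3, and the part of sex in the Gpr119 difference was not tested.

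The ratio of Gpr119 to Ffar1, chosen after the values were seen, was 0.522, 0.260 and 0.148 in Ctrl and 0.594, 0.751 and 0.641 in cKO. All cKO samples lay above all Ctrl samples, with Ctrl 1 nearest to them. The difference of mean log2 ratios was 1.28, and it ranged from 0.84 without Ctrl 3 to 1.75 without Ctrl 1. As the ratio was chosen for these values, it is given as a description, with no test.

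**Figure D2:**
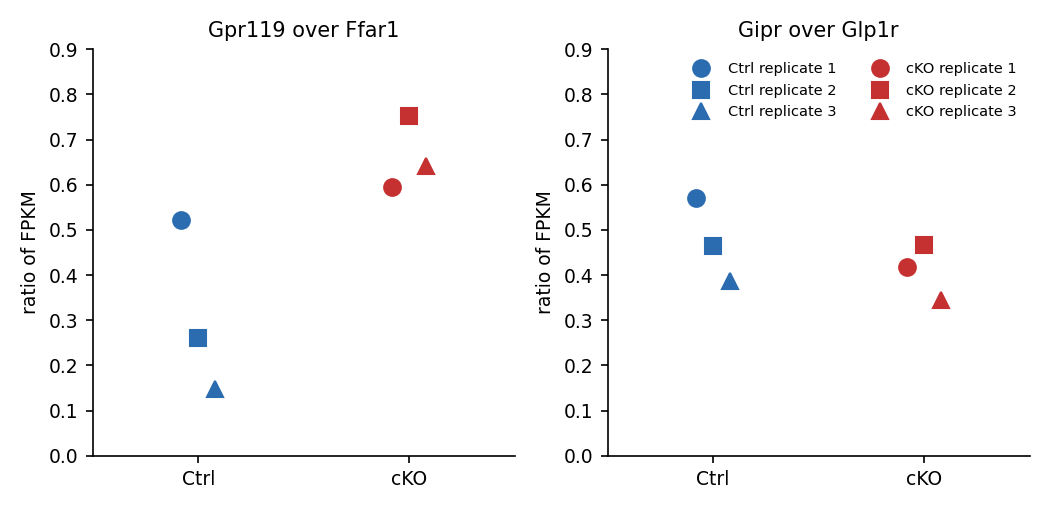
FPKM ratios within each sample, Gipr over Glp1r and Gpr119 over Ffar1, for Ctrl and cKO with one point per sample. The Gipr ratios overlap between the groups (0.387 to 0.572 in Ctrl, 0.344 to 0.466 in cKO), and the Gpr119 ratios do not (0.148 to 0.522 in Ctrl, 0.594 to 0.751 in cKO).

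The inhibitory receptors had small fold changes in the fit of all samples. Adra2a, the α2A-adrenoceptor through which adrenaline blocks insulin release, was at 31.6, 41.8 and 59.0 in Ctrl and at 38.0, 35.0 and 41.1 in cKO, and the cKO values lay inside the Ctrl range. Its log2 fold change was -0.17 (SE 0.216, limma adjusted p = 0.891). It was -0.38 without Ctrl 1 (SE 0.164, limma adjusted p = 0.469) and 0.058 without Ctrl 3. Sstr3, a somatostatin receptor of β cell cilia, was at 52.7, 62.1 and 57.7 in Ctrl and at 55.6, 52.2 and 46.2 in cKO, a fold change of -0.16 on the log2 scale (SE 0.105, limma adjusted p = 0.811). Galr1, a galanin receptor, overlapped throughout (15.7 ± 2.39 and 15.0 ± 1.90, SD, n = 3 each), with a log2 fold change of -0.056 (SE 0.142), or -0.18 without Ctrl 1. None of Adra2a, Sstr3 and Galr1 was called, so no direction is given for them. Their signs turned positive after scaling to β cell genes, but that scaling raised the median of all genes to 0.11, so the turn decides nothing.

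The Gq-coupled receptors outside the lipid group also had small fold changes. Chrm3, the muscarinic receptor for acetylcholine released by parasympathetic nerves, was listed at 4.25, 5.45 and 7.52 in Ctrl and at 7.26, 6.02 and 5.56 in cKO. Its log2 fold change was 0.13 (SE 0.193, limma adjusted p = 0.904), and it was -0.033 without Ctrl 1. Casr, the calcium-sensing receptor, had 13.6 ± 3.42 in Ctrl and 13.1 ± 1.504 in cKO (SD, n = 3 each). Its log2 fold change was -0.022 (SE 0.180), or -0.17 without Ctrl 1. It was positive without Ctrl 3 or cKO 2, and also under scalings that raised the median of all genes. These standard errors do not exclude modest differences in either direction.

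**Figure D3:**
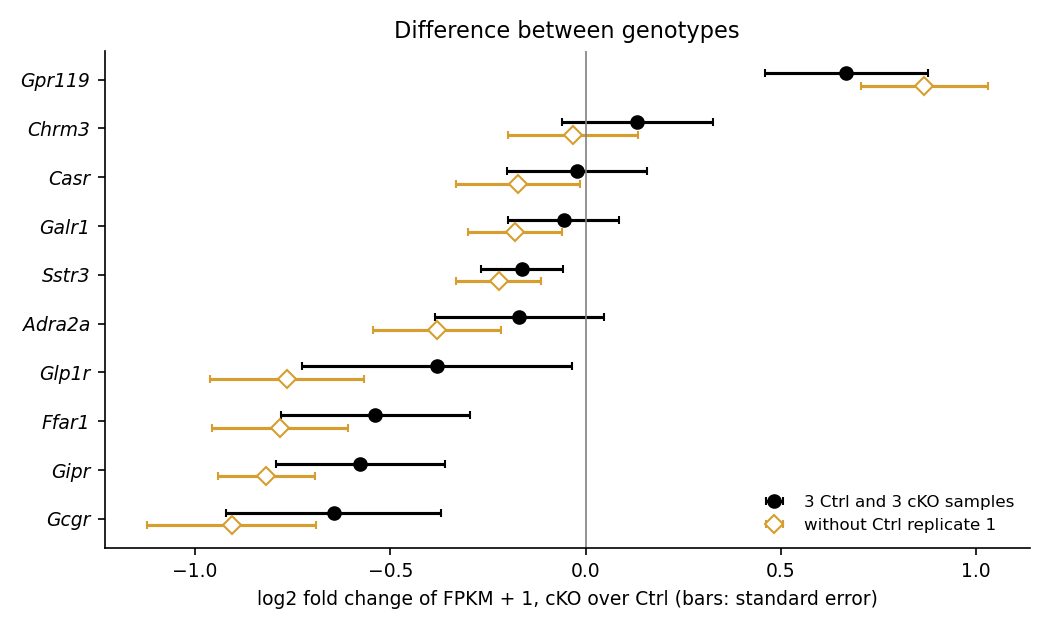
Log2 fold change of FPKM + 1 between cKO and Ctrl (horizontal axis) for the 10 receptor genes, with standard errors as bars, from the fit of all 6 samples and from the fit without Ctrl 1. Values run from -0.64 for Gcgr to 0.67 for Gpr119 in the fit of all samples and from -0.91 to 0.87 for the same genes without Ctrl 1.

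Peptides made in islets for these and related receptors had fold changes of both signs. Of 12 such genes 10 were tested, and at the unadjusted level 1 was called lower and 2 higher, beside 3.07% and 4.33% of all genes. Gal, which encodes galanin, was at 3.78, 2.50 and 2.79 in Ctrl and at 9.11, 4.201 and 5.98 in cKO, with no overlap (log2 fold change 0.84, limma adjusted p = 0.545). Vip, a neuropeptide of islet nerves and ganglia, was at 16.0, 6.93 and 18.1 in Ctrl and at 31.6, 59.4 and 20.1 in cKO (log2 fold change 1.34, limma adjusted p = 0.602). Ucn3, the β cell peptide that stimulates somatostatin release, had a mean of 255 ± 61.7 in Ctrl and 167 ± 18.7 in cKO (SD, n = 3 each). Gcg, whose product is the ligand of GCGR, ranged from 10252 to 15328 in Ctrl and from 8219 to 15396 in cKO, and Sst from 4166 to 6821 and from 4949 to 7815, both with overlap. Iapp, which encodes amylin and was the most abundant gene of the list, was at 17011, 23853 and 20792 in Ctrl and at 14109, 14450 and 13486 in cKO. The groups did not overlap, with cKO below, but the log2 fold change of -0.54 was not called (limma adjusted p = 0.896). In limma each gene's SE is drawn towards those of genes of like level. The SE of Iapp was 0.719, so its p does not measure the spread of its own samples alone. Ppy, which encodes pancreatic polypeptide, was spread from 6846 to 17895 in Ctrl and from 11221 to 14340 in cKO.

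Among the paralogs of the receptors, 15 of 22 genes were tested, and 1 was lower and 2 higher, or 2 lower and 1 higher without Ctrl 1. Vipr1, a receptor for VIP and PACAP, was at 9.81, 12.5 and 13.1 in Ctrl and at 8.25, 7.34 and 7.91 in cKO (log2 fold change -0.53, limma adjusted p = 0.414). Adcyap1r1, the PACAP receptor, was low but higher in all cKO samples, at 0.507 ± 0.107 against 1.14 ± 0.151 (SD, n = 3 each). Ffar2, a receptor for short-chain fatty acids, stood at 15.2 ± 1.43 and 18.2 ± 1.16 (SD, n = 3 each), and Galr3, a galanin receptor and the most abundant paralog, at 22.9 ± 3.99 and 20.8 ± 2.08 with overlap. Other surface receptors gave 3 lower and 2 higher of 34 tested, and 6 lower and 3 higher without Ctrl 1. Of all genes, 3.07% were lower and 4.33% higher, or 5.45% and 5.87% without Ctrl 1. Ptger3, a Gi-coupled prostaglandin E2 receptor, was at 1.34, 1.02 and 0.86 in Ctrl and at 2.76, 2.33 and 2.46 in cKO (log2 fold change 0.77, limma adjusted p = 0.308). P2ry1, an ADP receptor coupled to Gq, was at 8.36, 15.4 and 9.40 in Ctrl and at 6.62, 3.89 and 5.33 in cKO (log2 fold change -0.92, limma adjusted p = 0.509). Avpr1b, a vasopressin receptor, and Adora1, the adenosine receptor coupled to Gi, were also below Ctrl in all cKO samples, with log2 fold changes of -0.47 and -0.62. Gabbr2, a subunit of the GABA-B receptor, was called higher, at 8.23, 6.40 and 6.90 in Ctrl and at 12.9, 7.79 and 13.6 in cKO, although cKO 2 lay below Ctrl 1. Gpr142, a receptor for aromatic amino acids and the most abundant of this list, had overlapping values of 17.2 ± 3.71 and 14.3 ± 1.28 (SD, n = 3 each).

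Downstream of the receptors, the lists are read beside the 7.4% of all genes called in either direction. In the Gs and cAMP pathway 1 of 28 genes was lower, Sik1, a kinase whose gene cAMP induces. It was at 4.54, 7.71 and 5.97 in Ctrl and at 2.30, 3.09 and 2.59 in cKO, without overlap (log2 fold change -0.93, limma adjusted p = 0.379). The catalytic subunit Prkaca had a mean of 45.7 in both groups, and the regulatory subunit Prkar1a of 130 and 150. Of 14 cAMP phosphodiesterases tested, Pde7b was higher in cKO (0.740 ± 0.200 against 1.56 ± 0.069, SD, n = 3 each). The more abundant Pde8a and Pde3b overlapped, with means of 12.5 and 11.6 and of 12.4 and 11.4 in Ctrl and cKO. None of 20 genes of the Gq and phospholipase C pathway was called in the fit of all samples. Gna11, a Gq-class α-subunit, had means of 27.8 and 29.9. Without Ctrl 1, 1 gene of this list was called lower, beside 5.45% of all genes. It was Trpm5, whose log2 fold change was -0.91 with all samples and -1.36 without Ctrl 1.

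In the Gi/o pathway Gnai1, an inhibitory α-subunit, was at 8.21, 6.85 and 7.34 in Ctrl and at 10.2, 12.8 and 10.9 in cKO, and Rgs2, a GTPase-activating protein for Gα subunits, was at 51.9, 36.7 and 36.8 against 32.8, 16.1 and 20.5. Neither overlapped between groups, and their log2 fold changes were 0.54 and -0.87 (limma adjusted p = 0.392 and 0.546). The more abundant Gnai2 and Gnao1 had means of 127 and 122 and of 35.4 and 36.7 in Ctrl and cKO. Among 7 receptor kinases and arrestins, Arrb2, the β-arrestin 2 that uncouples and internalises receptors, was lower in all cKO samples (13.7 ± 0.974 against 10.2 ± 0.554, SD, n = 3 each). Means of the kinases Grk2 and Grk3, which phosphorylate active receptors, were 22.3 and 20.4 and were 15.4 and 14.1 in Ctrl and cKO, with overlap. None of 9 accessory proteins was called, among which Pcsk1n had means of 514 and 470.01 and Gprasp1 of 24.8 and 23.1. Over all pathway lists together 8 of 152 genes tested were lower (5.26%) and 8 higher (5.26%), beside 3.07% and 4.33% of all genes, and their median log2 fold change was 0.0085. Without Ctrl 1 these counts were 16 of 151 (10.6%) and 9 (5.96%), beside 5.45% and 5.87% of all genes.

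**Figure D4:**
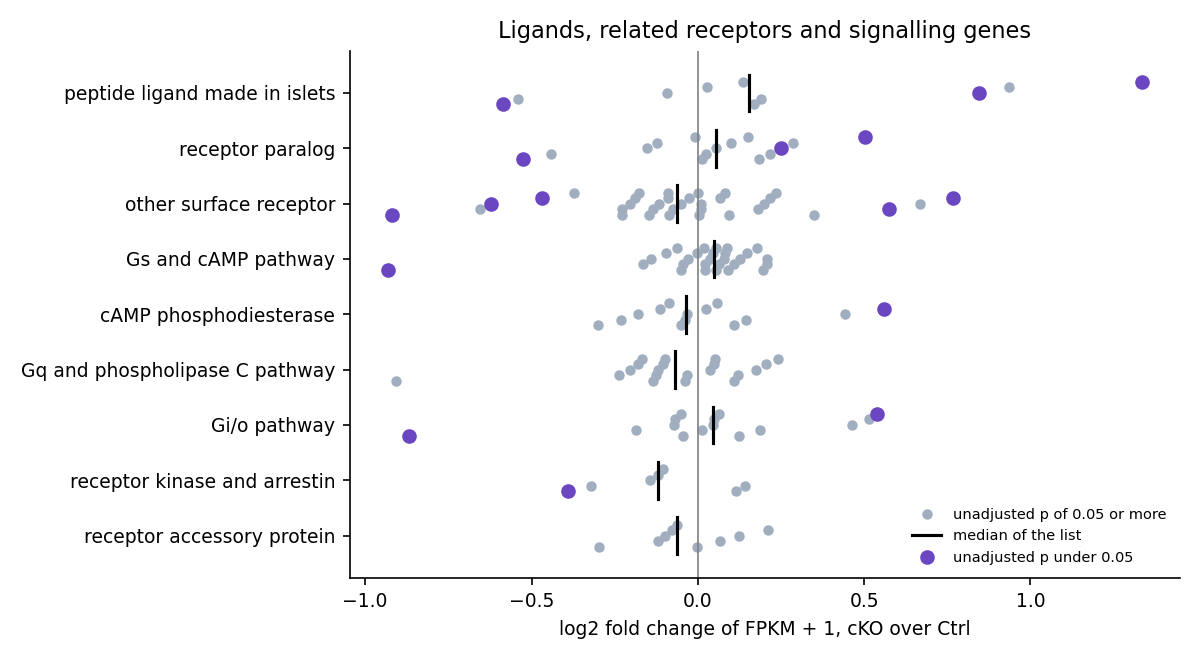
Log2 fold change of FPKM + 1 between cKO and Ctrl for every tested gene of the ligand, related-receptor and signalling lists, with one row per list, one point per gene, a black bar at the list's median and purple points for an unadjusted p under 0.05. Each list lies on both sides of 0, and 16 of the 152 pathway genes passed an unadjusted p under 0.05.

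Because each receptor sits on particular islet cells, the cell type markers were read in the same fit. Over all genes 3.07% were called lower and 4.33% higher at the unadjusted level. Of the β cell markers 8 of 10 had a negative fold change, and 1 was called lower (Ucn3). Ins2 was at 154877 to 178676 in Ctrl and at 109030 to 132945 in cKO, without overlap, whereas Ins1 overlapped (61862 to 74399 and 63963 to 69820). The summed FPKM of the β cell list was 235964, 268775 and 276386 in Ctrl and 195405, 205244 and 217645 in cKO, and Ctrl 1 was the lowest Ctrl sample there too, as for 9 of the 10 receptors. The α cell list, of which Gcg is the most abundant gene, summed to 11119, 12518 and 16377 in Ctrl and to 8783, 16344 and 12823 in cKO, with overlap.

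Markers of cells outside the endocrine islet also varied. The 8 acinar markers summed to 11415, 18330 and 6650 in Ctrl and to 30220, 8277 and 25094 in cKO, with no gene called. All 8 had a positive fold change, with a median of 0.67 on the log2 scale. Their most abundant gene, the chymotrypsinogen Ctrb1, was at 2915 to 8514 in Ctrl and 3845 to 13984 in cKO. All 6 endothelial markers had a positive fold change, and 2 (Plvap and Cdh5) were called higher, beside 4.33% of all genes. Plvap, the most abundant, had means of 66.1 and 89.2. The 6 stromal markers summed to 18.8, 11.1 and 12.6 in Ctrl and to 13.1, 39.9 and 38.9 in cKO, and the 6 leukocyte markers to 594, 32.2 and 37.4 and to 31.4, 64.7 and 70.0. All 6 stromal markers had a positive fold change (median 0.74), and all 6 leukocyte markers a negative one (median -0.34). The leukocyte median was 0.41 without Ctrl 1. The most abundant stromal gene, Dcn, was at 1.56 to 7.03 in Ctrl and 3.43 to 15.2 in cKO. The stromal list held 1 gene called higher (Col3a1) and the leukocyte list 1 called lower (Cd79a). Duct cell markers, led by Spp1 (48.1 in Ctrl 1 and 15.1 to 38.2 elsewhere), gave 1 lower (Krt7), and no gene was called among δ and PP cell markers. The part of these differences in the receptor values was not tested.

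**Figure D5:**
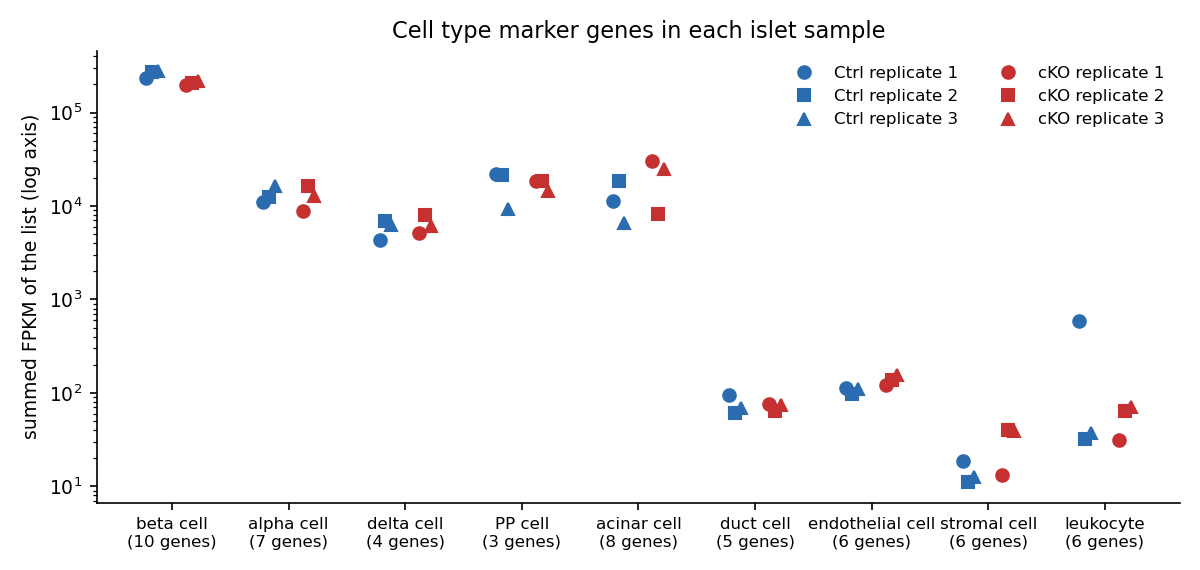
Summed FPKM of the marker genes of each cell type (log axis) in the 3 Ctrl and 3 cKO samples, with one point per sample. The β cell sum, in which Ins2 is the most abundant gene, is lower in every cKO sample. Of its 10 genes, 2 lie below Ctrl without overlap and 1 above, beside 6.03% and 7.11% of all genes tested. The leukocyte sum is 594 in Ctrl 1 against 31.4 to 70.0 elsewhere.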

How the data were processed

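Islet total RNA from 3 Ctrl and 3 cKO samples was sequenced from SMARTer mRNA-seq libraries. Per the labels the build was GRCm38 (mm10), credited to the submitters' processing notes. The aligner, counter and annotation release were not given in the sources used here. The values used are FPKM as the authors deposited them, with gene lengths and coordinates. Multiplying by length and library size returned whole reads (tolerance 0.05), and median-ratio factors of the deposited values were near 1, so the library sizes had been scaled already. The authors tested with DESeq2 on counts. Here the recovered reads served only for read numbers and for voom, as an alternative.

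Genes whose mean FPKM reached 0.1 were fitted as log2(FPKM + 1) with limma 3.58.1 (R 4.3.3) with an intensity trend, two-sided, with Benjamini-Hochberg adjustment over all genes tested. The fit was tested on simulated data, whose outcome is not reported here. A fold change on this scale understates that of low genes. Since the deposited values are FPKM, limma on these log2 values was the main test in place of a count test. Ratios were compared by exact permutation in Python 3.11.15. The receptors and gene lists (ligands, paralogs, other receptors, signalling and cell types) were chosen with earlier results of these data known. Named genes were all receptors, Parn, Ins1, Ins2, Gcg and Sst, up to 4 genes per pathway list and 3 per cell type list at an unadjusted p under 0.05, and the 2 most abundant per pathway list and 1 per cell type list. For Glp1r, Gipr and Gcgr the 3 nearest genes were named. Xist, Ddx3y, Gm11789, Ffar3 and the Gpr119 to Ffar1 ratio were added after values were seen. Some cell type marker genes are not reported here. Alternatives covered pseudocount, filter, scaling, trend, voom, the replicate block and leaving out each sample.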

Additional observations from a re-analysis of the deposited data

How the results depend on the processing

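Glp1r, Gipr, Gcgr, Ffar1 and Gpr119 kept their sign under the 15 planned and 1 added setting, and the other 5 receptors did not. Genes lower in cKO at an unadjusted p under 0.05 by limma numbered 651, and 307 after scaling to the sum of all genes, 328 with voom on the reads, 217 after scaling to β cell genes (added after seeing the data) and 401 to 1142 when each sample was left out. Genes higher numbered 919, and 1789, 1499 and 1600 under those scalings in that order, and 683 to 1231 without each sample. Calls at an adjusted p were 0, 2 with voom and 0 to 14 without each sample. Receptors called lower were 1, and 0, 2 and 0 under the sum, voom and β cell scalings and 0 to 4 without each sample. Receptors called higher were 0 to 1 without each sample. Pathway genes called lower were 6 to 16 without each sample, and those called higher were 13, 13 and 15 under the 3 scalings, against 8.

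Signs turned for receptors near 0: Adra2a at 0.032 under the β cell scaling and between -0.38 and 0.058 without each sample, Sstr3 at 0.040 under the β cell scaling, Chrm3 between -0.033 and 0.32 without each sample, Galr1 at 0.073, 0.027 and 0.14 under the sum, voom and β cell scalings and -0.18 to 0.030 without each sample, and Casr at 0.11, 0.067 and 0.17 and -0.17 to 0.16 likewise. The sum, voom and β cell scalings also raised the median of all genes, from -0.014 to 0.069, 0.069 and 0.11, so turns under them decide no direction. The cause was not tested. Shared replicate numbers did not pair the samples (correlation of deviations -0.17, -0.02 and -0.07 within numbers). The replicate block gave 538 genes lower and 737 higher by limma, with Gipr no longer called and Ffar1 called. Depth limits the low genes most, such as Pde7b and Adcyap1r1.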

Other observations

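Trpm5, a calcium-activated cation channel that acts after phospholipase C in β cells, was at 13.4, 33.1 and 38.5 in Ctrl and at 16.6, 11.4 and 12.5 in cKO, with the same low Ctrl 1 as Glp1r, Gipr and Gcgr. Its log2 fold change was -0.91, and -1.36 without Ctrl 1, where it was called lower at the unadjusted level. Ffar3, a short-chain fatty acid receptor chosen after its values were seen, was at 5.83, 7.60 and 11.02 in Ctrl and at 5.08, 5.19 and 6.46 in cKO, so that only Ctrl 1 fell within the cKO range.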
